A study of Rattus norvegicus with 8 samples.

Results

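Protein kinase C isoforms were examined in the hippocampus of adrenalectomized (ADX) rats infused with vehicle or corticosterone. The isoforms were taken by gene symbol as Prkca, Prkcb, Prkcd, Prkce, Prkch, Prkcq, Prkcz and Prkci. These 8 symbols had 12 of the 16266 transcript rows in the deposited table, which holds 13272 symbols in all. The members were chosen by the FPKM values of CORT against vehicle, with the difference in Prkcd already known, so every value of CORT against vehicle below is a description.

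Vehicle, 0.45% saline, was infused into 4 ADX rats for 30 min from zeitgeber time (ZT) 2, and corticosterone-2-hydroxypropyl-β-cyclodextrin at 0.75 mg/mL into the other 4 (CORT group). The labels give Sprague-Dawley rats aged 3 to 4 months, whereas the methods of the study name male Lister hooded rats, and the sample titles call the vehicle rats untreated. Both groups lacked adrenal glands, both had recovered on a low dose of corticosterone in their drinking saline that was withdrawn before the infusion, and whole hippocampi were taken 2 h after its start. The vehicle is described without cyclodextrin, so effects of the steroid and of its carrier cannot be told apart. The table gives 1 FPKM value per group for each transcript, a level normalized for the length of the transcript and for sequencing depth. Values of single rats are not part of it, so no value here has an error, these values allow no test between the groups, and the depth of the libraries is unknown. A transcript was counted as different when its 2 values differed by at least 1.5-fold, which is 0.58 on the log2 scale.

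Protein kinase C enzymes are serine/threonine kinases that act downstream of receptors coupled to phospholipase C. The phospholipase releases diacylglycerol (DAG), which recruits the kinases to membranes, and inositol trisphosphate (IP3), which releases stored calcium. The conventional isoforms PKCα and PKCβ respond to both DAG and calcium, the isoforms PKCδ, PKCε, PKCη and PKCθ respond to DAG without calcium (called DAG-only here), and the atypical isoforms PKCζ and PKCι need neither. In the hippocampus the family is known for its roles in transmitter release and in long-term potentiation.

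The tissue label was set beside marker genes first. Of 12 markers of hippocampal neurons, 8 had a row, and their levels summed to 2091 (vehicle) and 2284 FPKM (CORT). Their median log2 ratio was 0.08, and 2 of the 8 had a log2 ratio below 0, the lowest being -0.28. Of the 8, 1 was at least 1.5-fold higher with CORT, Zbtb20 (log2 ratio 0.81), and 0 were at least 1.5-fold lower. Camk2a, the alpha subunit of the calcium/calmodulin-dependent kinase of excitatory neurons, was at 593 (vehicle) and 667 FPKM (CORT). Most of each sum came from Camk2a and from Nrgn, at 1137 (vehicle) and 1254 FPKM (CORT), so the sums do not show that the tissue label holds. All 5 of a set of corticosteroid response genes were higher in the CORT group by at least 1.5-fold, from Klf9 at a log2 ratio of 0.60 to Sgk1 at 1.31. Over all symbols, with 1 row each, 1.92% were at least 1.5-fold higher and 3.99% at least 1.5-fold lower. The study names Per1, Sgk1, Tsc22d3 and Klf9 as under corticosteroid control partly from this same infusion experiment. The set is therefore no independent check.

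Prkcd was the one isoform whose main transcript was at least 1.5-fold lower in the CORT group, and the more abundant isoforms had almost equal values in the 2 groups. This transcript, the one with the highest mean level of the gene, was at 10.7 (vehicle) and 4.53 FPKM (CORT). The CORT value was 42.3% of the vehicle value, a log2 ratio of -1.24. PKCδ is a DAG-only isoform known for its part in apoptosis and secretion, and its mRNA is a familiar marker of thalamic relay neurons. In a whole hippocampus, fewer cells that express a gene and less of its RNA per cell cannot be told apart. In the file, Prkcd lies on chromosome 16 of rn6 from 6655119 to 6675746.

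Prkce was the most abundant of the 8 isoforms, and went from 94.8 (vehicle) to 99.9 FPKM (CORT) (log2 ratio 0.08). PKCε is a DAG-only isoform found in axons and presynaptic terminals. The remaining DAG-only isoforms had low levels, and both were lower in the CORT group by less than 1.5-fold. Prkcq, best known for signalling in T cells, was at 8.24 (vehicle) and 6.54 FPKM (CORT) (log2 ratio -0.33). Prkch, a kinase of epithelial cells, was at 1.76 and 1.30 FPKM (log2 ratio -0.44). Of the 4 DAG-only isoforms, the main transcript of 3 was thus lower with CORT, 1 of them past 1.5-fold.

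The main transcripts of the conventional and atypical isoforms were all slightly higher in the CORT group, and none differed by 1.5-fold. The main transcript of Prkca was at 15.3 (vehicle) and 16.7 FPKM (CORT) (log2 ratio 0.13). For Prkcb, whose product is abundant in principal neurons, the main transcript was at 39.2 and 43.0 FPKM (log2 ratio 0.13). Prkcz encodes PKCζ and, from an internal promoter, the constitutively active PKMζ that has been studied for the maintenance of long-term potentiation, and it was at 58.1 and 62.7 FPKM (log2 ratio 0.11). Prkci encodes PKCι, a kinase of the Par cell polarity complex, and was at 22.0 and 24.4 FPKM (log2 ratio 0.15). With Prkce, these 5 isoforms spanned log2 ratios of only 0.08 to 0.15, beside a median of 0.02 over all transcripts. Against this, the main transcript of Prkcd was lower by 1.32 to 1.39 on the log2 scale than each of those 5, by 0.91 than Prkcq and by 0.80 than Prkch. These gaps were smaller with the transcripts of each gene summed. The log2 ratio of Prkcd was then -0.83, beside -0.33 for Prkcq, -0.44 for Prkch and 0.08 to 0.23 for the other 5.

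**Figure D1:**
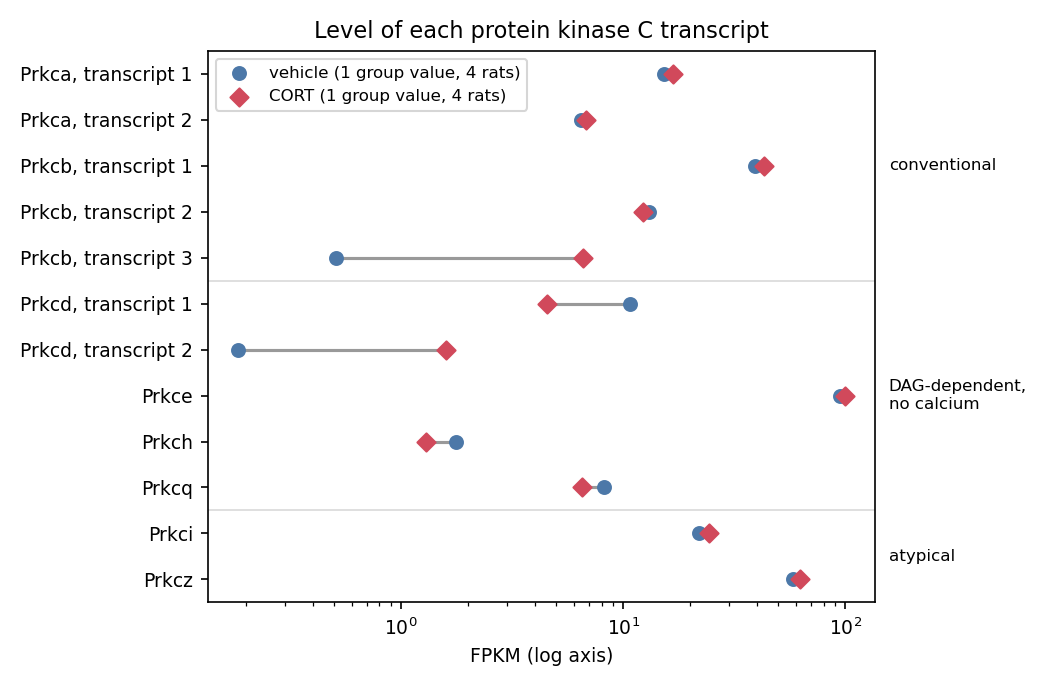
FPKM on a log axis of the 12 protein kinase C transcripts, with 1 value for the vehicle group (circles) and 1 for the CORT group (diamonds), each from 4 rats and without an error bar. The points of Prkce, Prkcz, Prkci and Prkca nearly coincide, those of the first Prkcd transcript move left from 10.7 to 4.53 FPKM, and a minor transcript each of Prkcb and Prkcd moves far right from under 1 FPKM.

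Of the 12 transcripts, 1 was at least 1.5-fold lower and 2 were at least 1.5-fold higher in the CORT group. Over all 16266 transcripts, 4.91% were at least 1.5-fold lower and 4.21% at least 1.5-fold higher. The main transcript of Prkcd was one of 215 transcripts (1.32% of all) with a log2 ratio of -1.24 or less. Many of those are scarce: among the 15004 transcripts with at least 1 FPKM in both groups, 58 (0.387%) had a ratio as low. In that more abundant set, 2.87% of transcripts were at least 1.5-fold lower and 2.51% at least 1.5-fold higher, beside 1 and 0 of the 10 isoform transcripts that belong to it. As the isoforms were listed for this contrast, nothing is read from these shares.

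**Figure D2:**
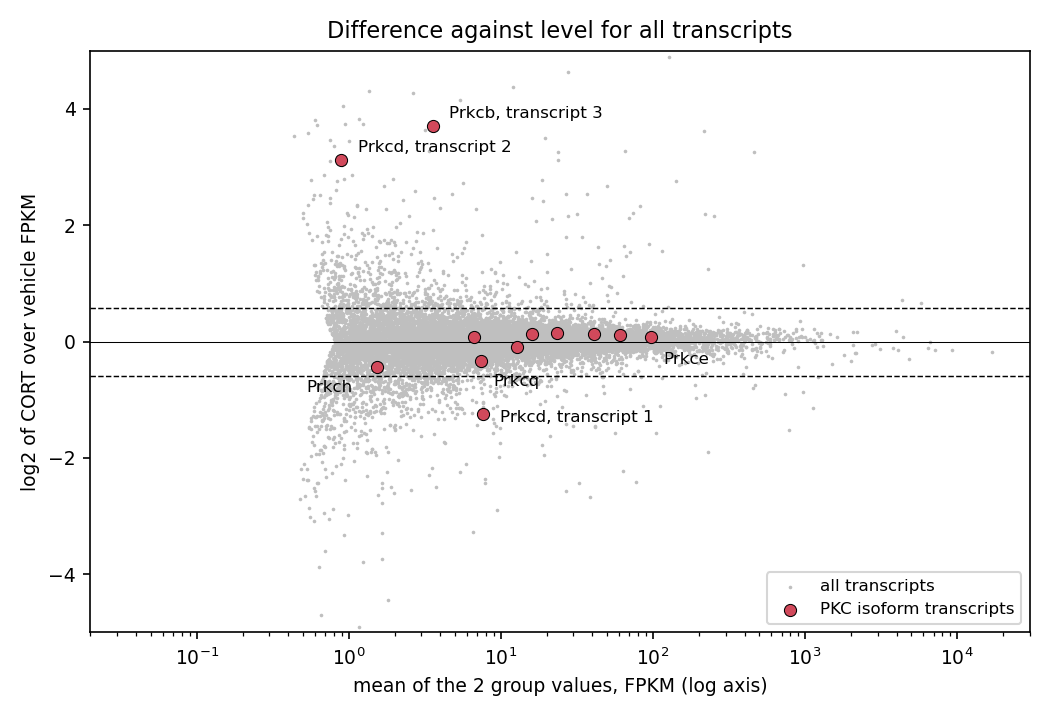
Log2 ratio of CORT over vehicle FPKM against the mean of both group values for all transcripts (grey) and the 12 isoform transcripts (red), with dashed lines at 1.5-fold, and 35 transcripts beyond the axes. The first Prkcd transcript lies below the lower line at a level where few transcripts do, and the 2 isoform transcripts far above the upper line have lower mean levels than it, where the grey cloud is wider.

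The 2 transcripts that were higher with CORT were minor transcripts of Prkcd and Prkcb. The second Prkcd transcript was at 0.184 (vehicle) and 1.6 FPKM (CORT) (log2 ratio 3.12), opposite in direction to the first. The third Prkcb transcript was at 0.509 (vehicle) and 6.63 FPKM (CORT) (log2 ratio 3.70), whereas the second was at 13.1 and 12.3 FPKM (log2 ratio -0.09). Both of the large differences start from under 1 FPKM, and among the 1262 transcripts under 1 FPKM in at least one group 24.5% were at least 1.5-fold higher and 29.1% at least 1.5-fold lower with CORT. The second Prkca transcript, at 6.46 and 6.84 FPKM (log2 ratio 0.08), moved no more than the first.

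Transcripts of one gene share most of their sequence, and the authors' software divides the shared reads between them by estimation, so the sum over a gene's transcripts was also taken. Summed, Prkcd was at 10.9 (vehicle) and 6.13 FPKM (CORT), which is 1.78-fold lower (log2 ratio -0.83) and still past 1.5-fold. The second transcript made up 1.69% of the Prkcd sum with vehicle and 26.1% with CORT. Summed Prkcb went from 52.7 to 61.9 FPKM (log2 ratio 0.23), with the third transcript making up 0.965% and 10.7% of it. Of the 2383 symbols with more than 1 transcript, 3.23% had one at least 1.5-fold higher and another at least 1.5-fold lower. The share was 1.5% of the 2000 symbols with more than 1 transcript at 1 FPKM or more in both groups. The second Prkcd transcript falls outside that filter. Of the 2383 symbols, 10.4% had a transcript that differed at least 2-fold within a sum that differed by less than 1.2-fold, as for Prkcb.

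**Figure D3:**
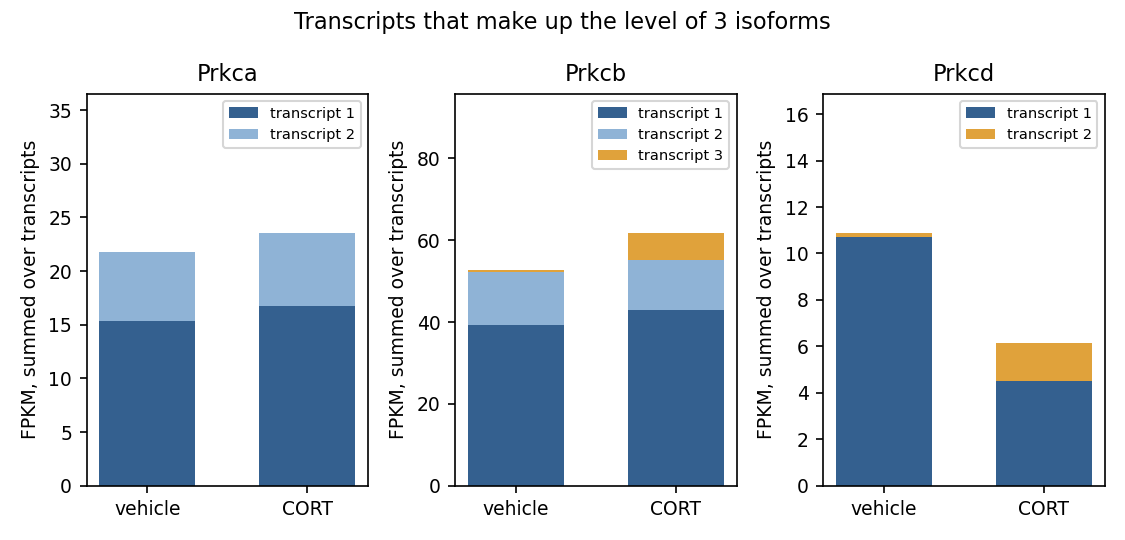
FPKM of Prkca, Prkcb and Prkcd in each group as bars from 0, stacked by transcript in order of mean level, with a scale of its own for each gene. The Prkcd bar drops from 10.9 to 6.13 FPKM while its second transcript takes a larger share of it, and the third Prkcb transcript appears on top of 2 that change little.

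The order of the summed levels with vehicle was Prkce, Prkcz, Prkcb, Prkci, Prkca, Prkcd, Prkcq and Prkch. It was the same with CORT except that Prkcd (6.13 FPKM) then stood below Prkcq (6.54 FPKM). Whether close neighbours in this order, such as Prkci and Prkca at 22.0 and 21.8 FPKM with vehicle, differ beyond the spread between rats could not be tested. Prkcd made up 4.03% of the summed level of the 8 isoforms with vehicle and 2.14% with CORT. The sum of all 8 was 270.3 (vehicle) and 286.4 FPKM (CORT), so the lower Prkcd was small beside the sum.

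For the promoters, windows from 250 bases before to 50 bases after the transcription start, taken from RefSeq on the GRCr8 build, matched 6 of the 8 isoforms, leaving out Prkcb and Prkch. The 15-base palindrome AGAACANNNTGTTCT, a consensus of the glucocorticoid response element, was searched on both strands because corticosterone acts through receptors that bind it. It was in none of the 6 windows and in 0.0149% of all 33469 windows. Its half-site AGAACA, which is part of the palindrome, was in the Prkcd window alone of the 6, and in 20.7% of all windows on either strand. The stretch of Prkcd that holds it begins the half-site 21 bases after the start, on the minus strand at chr16:5805803-5805828, and is shown with the half-site in capitals.
Prkcd: ccgcggcgccAGAACAggaggcggcg
The GC box GGGCGG was in all 6 windows and in 33.1% of all windows, and these 6 windows were 66.3% to 73.3% G and C, beside a median of 51.7% over all. The letters TATAAA of the TATA box were in the Prkcd window alone of the 6, and in 14.2% of all windows. In Prkcd they begin at position -244 relative to the start, at the far edge of the window. These matches are of letters only, and binding was not measured here.

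Of the 63 genes listed for the pathway around these kinases, 58 had a row, and 1 row was taken per gene, the most abundant. Of these, 3 were at least 1.5-fold higher and 2 at least 1.5-fold lower with CORT, which is 5.17% and 3.45%. With 1 row per symbol over the whole table, 1.92% were at least 1.5-fold higher and 3.99% at least 1.5-fold lower. The median log2 ratio of the 58 genes was 0.11, and that of all symbols was 0.02.

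Upstream of the kinases, the G proteins and phospholipases C included 12 genes with a median log2 ratio of 0.11. Gna11, the most abundant of them, encodes a G protein alpha subunit that activates phospholipase Cβ, and was at 43.3 (vehicle) and 48.3 FPKM (CORT). One gene passed 1.5-fold, the phospholipase Plce1, at 0.527 and 0.809 FPKM (log2 ratio 0.62), and with a pseudocount of 1 FPKM added to both values 0 genes of this list passed. Of the IP3 receptors, Itpr1, the main neuronal form, was at 24.4 and 29.9 FPKM (log2 ratio 0.30).

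The enzymes that make DAG into other lipids numbered 11, with a median log2 ratio of 0.07. Dgkz, a DAG kinase that ends the DAG signal, was the most abundant, at 226.5 and 234.6 FPKM. Daglb, a lipase that turns DAG into the endocannabinoid 2-arachidonoylglycerol, was at 5.83 (vehicle) and 10.3 FPKM (CORT) (log2 ratio 0.83). A second Daglb transcript moved the other way, and with both summed the log2 ratio was 0.26, below 1.5-fold.

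The 13 genes that prime, anchor or partner the kinases had a median log2 ratio of 0.12. Sqstm1, a scaffold that binds atypical PKC, was the most abundant, at 294.7 and 308.8 FPKM. Akap12, an anchoring protein for PKC and for protein kinase A, was at 4.52 (vehicle) and 1.47 FPKM (CORT) (log2 ratio -1.61). Over its 3 transcripts summed, Akap12 had a log2 ratio of -0.37, which is within 1.5-fold.

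Among 13 substrates and protein kinase D genes, the median log2 ratio was -0.03. Nrgn, the postsynaptic PKC substrate neurogranin, was at 1137 (vehicle) and 1254 FPKM (CORT) (log2 ratio 0.14). Prkd2, a protein kinase D that PKC activates, was at 4.33 and 7.48 FPKM (log2 ratio 0.79), and was the one gene of its list past 1.5-fold.

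Other DAG receptors, which bind DAG without being PKC, included 8 genes with a median log2 ratio of 0.06. Chn1, the neuronal chimaerin that acts on Rac, was the most abundant, at 331.2 and 329.8 FPKM. Rasgrp3, a DAG-activated exchange factor for Ras and Rap, was at 6.19 (vehicle) and 3.93 FPKM (CORT) (log2 ratio -0.66). With its 2 transcripts summed Rasgrp3 had a log2 ratio of -0.67, but at a pseudocount of 1 FPKM 0 genes of this list were 1.5-fold lower.

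**Figure D4:**
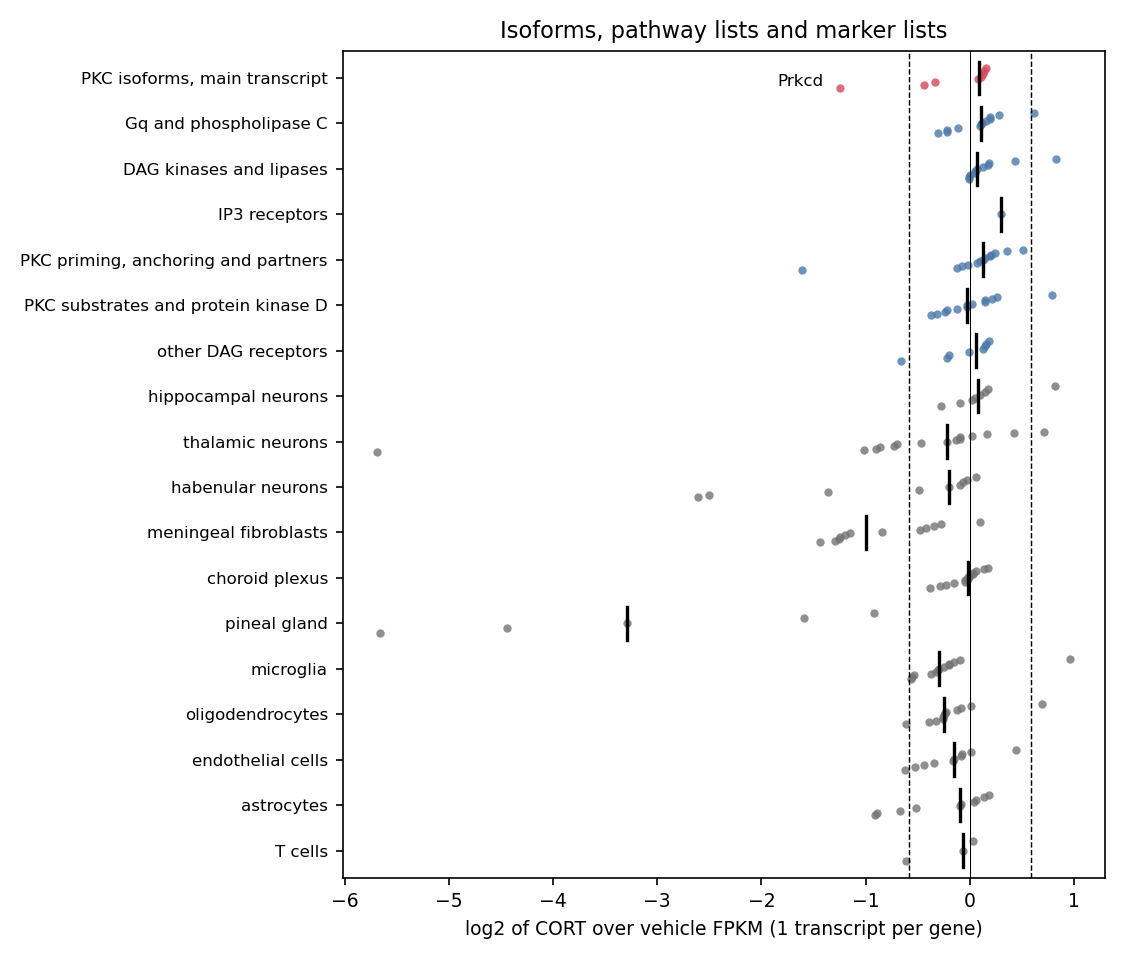
Log2 ratio of CORT over vehicle FPKM for the main transcript of each isoform (red), of the genes of 6 pathway lists (blue) and of 11 marker lists (grey), with a black bar at each median and dashed lines at 1.5-fold. Prkcd, at -1.24, stands left of the other isoforms, and the markers of meningeal fibroblasts (median -1.0) and pineal gland (median -3.29) lie mostly left of the lower line.

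Some markers of tissues that adjoin the hippocampus were lower with CORT beside Prkcd, and their part in that difference was not tested. Over the whole table with 1 row per symbol, 3.99% were at least 1.5-fold lower and 1.92% at least 1.5-fold higher. Of 15 thalamic markers with a row, 6 were at least 1.5-fold lower and 1 at least 1.5-fold higher with CORT, with a median log2 ratio of -0.22. Their summed level was 324.5 (vehicle) and 338.4 FPKM (CORT), most of it from Cplx1, a complexin that other neurons express too. Tcf7l2, a transcription factor of thalamic neurons, was at 5.22 (vehicle) and 2.59 FPKM (CORT) (log2 ratio -1.01). Slc17a6, the vesicular glutamate transporter of thalamic and other subcortical neurons, was at 9.0 and 5.56 FPKM (log2 ratio -0.70). Zic1, Synpo2 and Lef1 had log2 ratios of -0.90, -0.86 and -0.73. Shox2, under 1 FPKM in both groups, was at 0.869 (vehicle) and 0.0169 FPKM (CORT) (log2 ratio -5.69). In the other direction, Rora, also under 1 FPKM in both groups, was at 0.559 (vehicle) and 0.914 FPKM (CORT) (log2 ratio 0.71). Slitrk6 had a log2 ratio of 0.42.

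Of 9 habenular markers, 3 were at least 1.5-fold lower and none at least 1.5-fold higher, with a median log2 ratio of -0.20 and a summed level of 82.8 (vehicle) and 73.2 FPKM (CORT). The orphan receptor Gpr151 was at 3.24 and 0.573 FPKM, and the nicotinic receptor subunits Chrna3 and Chrnb4 were at 3.40 and 0.557 FPKM and at 1.35 and 0.523 FPKM. The other habenular markers with a row were within 1.5-fold. Of all 9, 8 had a log2 ratio below 0, and the exception was Tac3 at 29.4 (vehicle) and 30.6 FPKM (CORT).

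Meningeal fibroblast markers were lower too, with 7 of 12 at least 1.5-fold lower, a median log2 ratio of -1.0 and a summed level of 243.3 (vehicle) and 184.5 FPKM (CORT). At a pseudocount of 1 FPKM this median was -0.52. The transcript most like the main Prkcd transcript, by the distance between their log2 FPKM over the 2 group values, was one of these markers. It was that of Col3a1, a fibrillar collagen, at 10.7 (vehicle) and 4.35 FPKM (CORT) (distance 0.057). Next came Crabp2, which binds retinoic acid, at 10.4 and 4.78 FPKM, and the scaffold gene Mpdz at 10.3 and 4.93 FPKM. Serping1, the C1 inhibitor, at 10.3 and 5.0 FPKM, and Coch, which encodes the matrix protein cochlin, at 9.18 and 4.48 FPKM, followed.

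The remaining marker lists differed from one another. The median log2 ratio was -0.02 for choroid plexus (14 genes, 0 past 1.5-fold), -0.30 for microglia (13 genes, 1 higher), -0.24 for oligodendrocytes (12 genes, 1 higher and 1 lower) and -0.16 for endothelial cells (10 genes, 1 lower). It was -0.09 for astrocytes (10 genes, 3 lower) and -0.07 for the 3 T cell markers with a row, of which 1 was lower. Of 12 pineal markers 5 had a row, and all 5 were at least 1.5-fold lower, at a summed 17.9 (vehicle) and 2.82 FPKM (CORT). Their median log2 ratio was -3.29, and -1.61 at a pseudocount of 1 FPKM. No transcript in the table was at 0 in either group, the lowest value being 6.41e-05 FPKM. The absence of values of 0 among the markers therefore says nothing about the markers in particular. Per the methods of the study, genes that failed its comparison for low expression were removed. Markers without a row have no value here.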

How the data were processed

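Whole hippocampi of 8 rats, 4 per group, were used for RNAseq. Per the labels and the methods, the authors aligned reads to rn6 with TopHat2 2.0.10 and estimated FPKM per Ensembl transcript with Cufflinks and Cuffdiff 2.2.0, with geometric normalization, a minimum alignment count, and corrections for multi-mapped reads, sequence bias and effective length. The FPKM values were deposited as 1 value per group, so neither depth nor spread between rats can be given. Transcript models and reads shared between transcripts therefore shape each row's value. The deposited log2 fold change, test statistic (a score), p-value and q-value columns are the authors' own comparison and were not used.

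Log2 ratios of CORT over vehicle were computed here from the FPKM without a pseudocount. The isoforms and gene lists were chosen with earlier results of these data known. Named in the text were all isoform rows, the most abundant member of each pathway list and its members past 1.5-fold at 1 FPKM or more (otherwise the largest ratio), thalamic and habenular markers past 1.5-fold at that level, and the 5 most similar transcripts. Examples beyond this rule (Camk2a, Zbtb20, Tac3, Cplx1, Shox2, Rora, Slitrk6) were chosen after their values were seen. Lists used 1 row per symbol, and 2 genes were matched under older symbols from a RefSeq table of GRCr8. The counting of rows past a fold was tested on simulated data with planted changes, which checks the arithmetic alone. Alternatives were folds of 0.32 and 1 on the log2 scale, pseudocounts of 1 and 0.1 FPKM, a filter of 1 FPKM in both groups, centring on the median, and summed transcripts. Protein sequences were not analysed here, and 1 planned pathway list is not reported here. Python 3.11.15, numpy 2.4.6, pandas 2.3.3 and matplotlib 3.10.9 were used.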

Additional observations from a re-analysis of the deposited data

How the results depend on the processing

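The lower main transcript of Prkcd (log2 ratio -1.24) kept its direction and stayed past 1.5-fold under each alternative run, with -1.08 at a pseudocount of 1 FPKM and -0.83 with its transcripts summed. The second Prkcd transcript, at 3.12, takes the reversed value of -0.83 when summed with the first, because the sum is mostly the first. The isoform transcripts at least 1.5-fold higher numbered 2, and 0 with at least 1 FPKM in both groups or with transcripts summed. Both start under 1 FPKM, and both are the lesser share of their sums. The number at least 1.5-fold lower was 1, and 3 at the smaller fold of 0.32 (log2), where Prkch and Prkcq join Prkcd. Over all transcripts, 685 were higher and 798 lower at 1.5-fold. These counts were 1551 and 1757 at the smaller fold, 312 and 331 at 2-fold, 376 and 431 with at least 1 FPKM in both groups, 366 and 383 at a pseudocount of 1 FPKM, and 235 and 498 with transcripts summed, which leaves fewer features. Centring subtracted the same median log2 ratio, 0.02, from every transcript, so it could move none of the 12 isoform ratios by more than 0.1.

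Leaving out each rat could not be done, as only group values were used. No paired analysis was possible because each column pools the rats of its group. Identity between the proteins was not run. Low FPKM values have no known read count behind them, so the minor transcripts have no limit of detection.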

Other observations

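Prkcdbp, whose product cavin-3 binds PKCδ and belongs to the coat of caveolae, was at 12.1 (vehicle) and 8.91 FPKM (CORT), a log2 ratio of -0.44. It was looked at after the values of Prkcd were seen. The substrate Marcks, an actin-binding protein at the membrane, was at 32.1 and 24.8 FPKM (log2 ratio -0.37), and Gap43, a growth cone protein that PKC phosphorylates, at 172.7 and 207.6 FPKM (log2 ratio 0.27), both within 1.5-fold and chosen after their values were seen.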
